A study of Mus musculus with 8 samples.

Results

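The genes described here are 10 members of the bone morphogenetic protein (BMP) pathway, measured in E5.5 mouse epiblasts with and without induction of a cRAF construct that activates the ERK kinase pathway: the ligands Bmp2, Bmp4, Bmp8a and Bmp8b, the receptor Bmpr1a, the inhibitory SMAD genes Smad6 and Smad7, and the target genes Id1, Id2 and Id3. They were taken by name from the 52636 genes of the count table, and all 10 passed the filter on low counts that left 18321 genes for testing. They were chosen by name for their place in the pathway and selected on the contrast of 4-hydroxytamoxifen (4OHT) with vehicle within each clone, whose results in the same libraries were in view. The members' differences between 4OHT and vehicle are therefore given as a description, with standard errors. Their p-values are not printed. Where a member is said to be called (adjusted p under 0.05), that too is a description and not independent support.

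All 8 libraries carried the same alleles, Sox2Cre;CRAFR26, from 2 clones of the targeted line, called clone 4 and clone 8. Sox2Cre is a transgene that recombines floxed alleles in the epiblast lineage, and CRAFR26 is the allele of the 4OHT-inducible cRAF, carried by a mouse line made by injecting targeted embryonic stem cells into morulas. Each library was made from 7 ng of RNA of a pool of 10 epiblasts, isolated by removing the extraembryonic layers under the microscope and cultured in IVC2 medium. 4OHT was given at 250 nM for 4 h, and the vehicle was ethanol. The vehicle titles read 0 h while the treatment label of the same samples gives 4 h of ethanol. Each clone had 2 libraries per condition, which makes 4 groups. No group lacked the construct, so 4OHT itself and the cRAF it induces cannot be told apart. The labels do not say that replicates came from separate litters, and the p-values below measure only the spread between these samples.

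BMP ligands bind a complex of type I receptors, such as the product of Bmpr1a, and type II receptors. The activated receptors phosphorylate SMAD1, SMAD5 and SMAD9, which enter the nucleus with SMAD4 and switch on targets that include the Id genes. In the embryo before gastrulation, the extraembryonic ectoderm is the known source of BMP4 and BMP8B and the visceral endoderm the known source of BMP2. Both tissues adjoin the epiblast, and their signals are known for inducing primordial germ cells and mesoderm there.

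Bmp4 and Bmp8b were the 2 members with the largest differences in clone 8, and Bmp8a is the close paralogue of Bmp8b. Their promoters are shown as the regulatory sequence of these ligands, so that the paralogues can be compared with each other and with Bmp4. They hold no annotated exonic base of their own gene and do not bear on how reads were assigned to it. Exons of other genes in these stretches were not checked. The 250 bases upstream of each RefSeq transcription start (GRCm38.p6) are printed 5′ to 3′ on the gene's strand. They cover chr4:123104911-123105160 on the plus strand for Bmp8b, chr4:123343253-123343502 on the minus strand for Bmp8a, and chr14:46390670-46390919 on the minus strand for Bmp4. Capitals mark the 4-letter SMAD box GTCT and the GC box GGGCGG, each searched on both strands, so that AGAC and CCGCCC are the same motifs on the other strand.
Bmp8b: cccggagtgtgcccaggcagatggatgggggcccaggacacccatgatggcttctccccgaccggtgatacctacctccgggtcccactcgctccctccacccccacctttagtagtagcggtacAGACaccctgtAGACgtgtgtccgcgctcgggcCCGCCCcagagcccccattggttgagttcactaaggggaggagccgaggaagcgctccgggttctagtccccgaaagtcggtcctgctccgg
Bmp8a: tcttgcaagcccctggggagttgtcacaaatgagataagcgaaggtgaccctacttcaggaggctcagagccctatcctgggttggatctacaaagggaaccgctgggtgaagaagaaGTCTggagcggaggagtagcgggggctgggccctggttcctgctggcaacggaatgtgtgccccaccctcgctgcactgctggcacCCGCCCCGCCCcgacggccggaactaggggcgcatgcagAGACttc
Bmp4: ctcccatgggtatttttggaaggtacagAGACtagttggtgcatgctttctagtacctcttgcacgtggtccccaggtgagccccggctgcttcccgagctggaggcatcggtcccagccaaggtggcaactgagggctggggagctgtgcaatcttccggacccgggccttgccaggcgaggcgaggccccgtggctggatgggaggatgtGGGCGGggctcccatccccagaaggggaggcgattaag

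The Bmp8a and Bmp8b promoters differ throughout, with a longest identical run of 8 bases, no longer than the 9 bases shared by Bmp4 and Bmp8b. Bmp8b held 2 SMAD boxes, at 125 and 114 bases upstream of the start, and a GC box at 92. Bmp8a held SMAD boxes at 132 and 7 and 2 overlapping GC boxes at 46 and 41. Bmp4 held a SMAD box at 222 and a GC box at 38. GTCT occurred in 82.9% and GGGCGG in 32.7% of 32851 RefSeq promoter windows of the same length, so neither set of letters is particular to the 3 genes. The GC-rich SMAD element GGCGCC, present in 9.59% of windows, was found in none of the 3. The ETS-type letters CCGGAA, present in 12% of windows, were found at 29 in Bmp8a and 95 in Bmp4. A match is a description of letters and not a binding site.

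The transcribed parts are less distinct. Bmp8a and Bmp8b lie 180545 bases apart on chromosome 4, and 210 exonic windows of 50 bases were identical between them, 8.743% of those of Bmp8a and 5.505% of those of Bmp8b. Reads from such windows could be assigned to either gene, so the small Bmp8a values are uncertain where Bmp8b is high. Bmp8b also shares 133 of its 3880 exonic bases with exons of Ppie and 339 with Gm17244 on the opposite strand. Bmp4 shares 89 of 2248 with the antisense gene Gm15217, and 290 exonic bases of Bmpr1a lie in Gm17110. Whether the counting used strand is not given in the sources used here. Gm15217 reached at most 0.108 CPM (counts per 1000000) in a library, Gm17110 at most 0.217 and Gm17244 at most 1.46, while Ppie ranged from 103 to 145.

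The 8 libraries held 33341813 to 37960284 counts in vehicle and 56384556 to 72497719 in 4OHT, so depth differed with the condition. Levels below are counts per 1000000 (CPM), with library sizes scaled by TMM. Mitochondrial transcripts took 0.205 to 0.619% of counts in 6 libraries, and 1.35% and 1.19% in the 4OHT libraries of clone 8. The labelled tissue showed its defining markers, with Pou5f1 at 435 to 888 CPM and Fgf5 at 162 to 224 CPM. Markers of the removed layers were detected too. None of 15 extraembryonic ectoderm and 18 visceral endoderm markers was at 0 in any library, and their summed levels ran from 529 to 1290 CPM and from 530 to 3019 CPM. At this depth a count above 0 is a low bar, and how much of either layer remained was not tested. Esr1, the oestrogen receptor gene, was at 0.187 to 0.723 CPM in vehicle and 5.92 to 6.76 CPM in 4OHT, without overlap.

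Per length of exon, the Id genes stood highest and Smad6 lowest on average. Within libraries, Smad6 was lowest in clone 4, and Bmp8a or Bmp2 was lowest in clone 8. The mean over 8 libraries, in reads per exonic kilobase scaled as CPM are (RPKM), was 175 for Id3, 130 for Id2, 120 for Id1, 45.6 for Bmp4, 10.7 for Bmp8b, 7.36 for Smad7, 4.68 for Bmpr1a, 2.83 for Bmp2, 1.63 for Bmp8a and 1.51 for Smad6. Not every step in this order held within libraries. Bmp8a exceeded Smad6 in 5 of 8 libraries, Id2 exceeded Id1 in 6, and Bmp8b exceeded Smad7 in 6, so these neighbours overlapped. Id1 exceeded Bmp4, Bmp4 exceeded Bmp8b and Smad7 exceeded Bmpr1a in all 8.

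**Figure D1:**
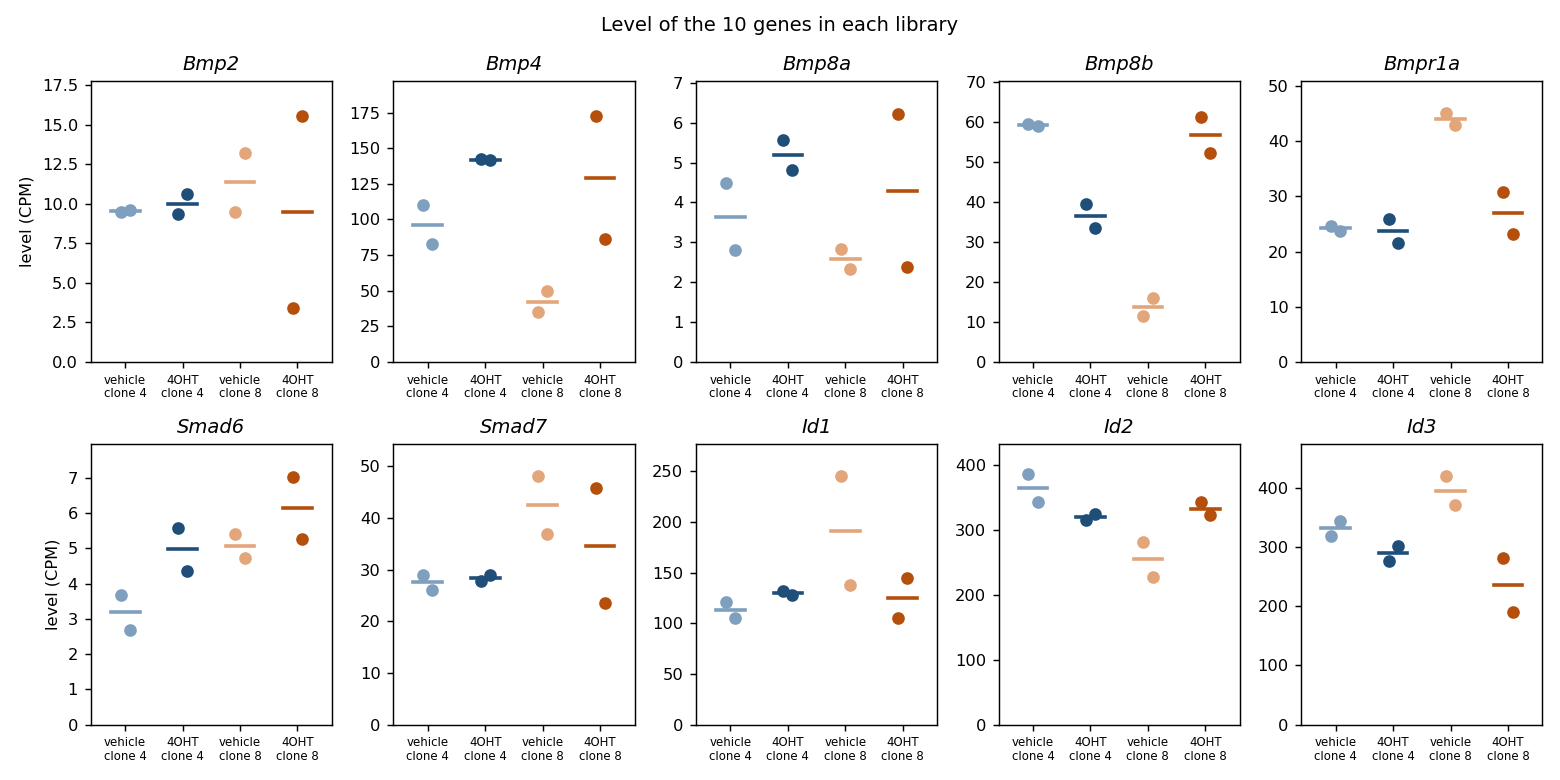
Level of each member (CPM, linear axes that start at 0) in the 8 libraries, by clone and condition; points are libraries and bars are group means of 2. Bmp8b is lowest in the vehicle libraries of clone 8, at 11.4 and 15.9 CPM, and Bmp2 spans 3.39 to 15.5 CPM within 4OHT clone 8.

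Bmp4, the principal BMP ligand acting on the epiblast, was at 110 and 82.8 CPM in vehicle and 142 and 142 CPM in 4OHT in clone 4. In clone 8 it was at 34.8 and 49.7 CPM in vehicle and 172 and 86.4 CPM in 4OHT. In both clones the 4OHT libraries lay above the vehicle libraries of the same clone, and the 4OHT level reached in clone 8 spanned that of clone 4. Such separation, with 4OHT higher, was seen for 23.7% of all genes in clone 4 and 31.7% in clone 8. Bmp4 was not called in clone 4. The vehicle level was lower in clone 8 by 1.19 on the log2 scale (SE 0.30). The call of this difference was lost with library totals alone, with a replicate block and in most fits that leave out 1 library. The log2 fold change was 0.56 (SE 0.30) in clone 4 and 1.62 (SE 0.30) in clone 8, a difference of 1.06 (SE 0.42). One library carried much of the clone 8 value: it was 1.03 without 4OHT clone 8 replicate 1 and 2.02 without replicate 2.

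Bmp8b, which acts with BMP4 in germ cell induction, was lower with 4OHT in clone 4 and higher in clone 8. In clone 4 it was at 59.4 and 58.8 CPM in vehicle and 39.4 and 33.6 CPM in 4OHT, a log2 fold change of -0.70 (SE 0.19). In clone 8 it was at 11.4 and 15.9 CPM in vehicle and 61.3 and 52.1 CPM in 4OHT, a log2 fold change of 2.05 (SE 0.19). The groups did not overlap in either clone, and the vehicle libraries of clone 8 were the lowest of all 8. Of all genes, 23.8% were wholly lower with 4OHT in clone 4 and 31.7% wholly higher in clone 8. Bmp8b was not called in clone 4. The responses differed by 2.75 on the log2 scale (SE 0.27), and in vehicle Bmp8b was lower in clone 8 by 2.12 (SE 0.20). Since the vehicle libraries of clone 8 enter all 3 of these clone 8 values, they are 1 observation and not 3.

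Bmp8a, the paralogue, was far lower. It ranged from 2.32 to 4.49 CPM in vehicle and from 2.37 to 6.21 CPM in 4OHT. The 2 libraries of 4OHT clone 8, at 6.21 and 2.37 CPM, spanned nearly the whole range. Its log2 fold change was 0.51 (SE 0.44) in clone 4 and 0.73 (SE 0.45) in clone 8. With the counts of the pair summed, the difference in response between clones was 2.50 on the log2 scale, against 2.75 for Bmp8b alone.

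Extraembryonic ectoderm markers were higher with 4OHT in clone 8, as Bmp4 and Bmp8b were. Their summed level was 1259 and 870 CPM in vehicle and 1211 and 1290 CPM in 4OHT in clone 4, and 529 and 568 CPM in vehicle and 1199 and 1131 CPM in 4OHT in clone 8. In clone 8, 11 of the 15 markers were called higher with 4OHT (edgeR quasi-likelihood test, adjusted p under 0.05) and none lower. Of all genes, 8% were called higher and 8.6% lower, and the markers' median log2 fold change was 1.65. In vehicle, 9 of 15 were called lower in clone 8 than in clone 4, where 4.31% of all genes were. Elf5, a transcription factor of that tissue, was at 16.4 and 24.3 CPM in vehicle clone 8 and at 55.7 to 95.3 CPM in the other 6 libraries. In clone 4 the sums overlapped between conditions, 13 of 15 markers had a positive log2 fold change with none called, and the median was 0.25, while Bmp8b was lower in both 4OHT libraries. In bulk RNA, fewer cells of a type and less RNA per cell cannot be told apart, and the part of this tissue in the Bmp4 and Bmp8b values was not tested.

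Bmp2, the ligand of the visceral endoderm, showed no separation between conditions. It was at 9.50 and 9.58 CPM in vehicle and 9.33 and 10.6 CPM in 4OHT in clone 4, and at 9.50 and 13.2 CPM in vehicle and 3.39 and 15.5 CPM in 4OHT in clone 8. The 4OHT libraries of clone 8 thus held both the lowest and the highest value of the series. The log2 fold change was 0.06 (SE 0.54) in clone 4 and -0.26 (SE 0.54) in clone 8, smaller than its error in both. The clone 8 value was 0.45 without 4OHT clone 8 replicate 1 and -1.75 without replicate 2. Either fit left that group without a replicate. Visceral endoderm markers summed to 970 and 637 CPM in vehicle and 2726 and 3019 CPM in 4OHT in clone 4, and to 1961 and 1968 CPM in vehicle and 530 and 1392 CPM in 4OHT in clone 8. Within 4OHT clone 8, the library with less Bmp2 had the smaller sum. In clone 4 the sum was higher in both 4OHT libraries while Bmp2 stayed between 9.33 and 10.6 CPM. The part of this tissue in the Bmp2 values was not tested.

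**Figure D2:**
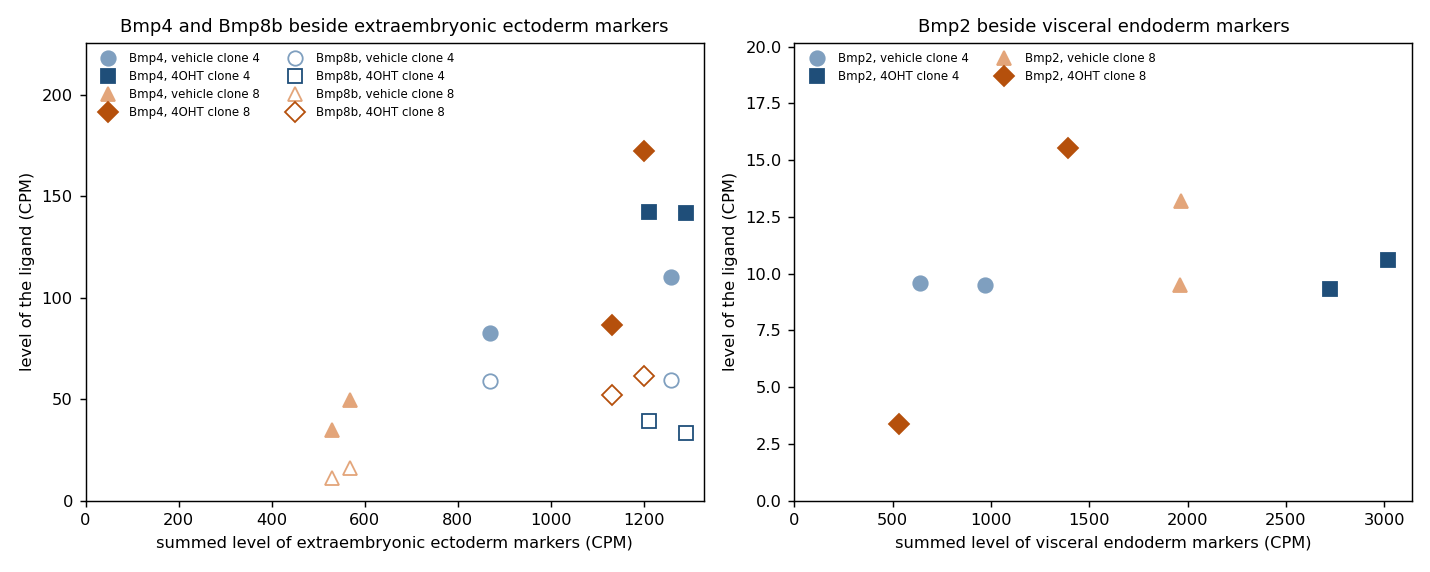
Level of Bmp4 and Bmp8b against the summed level of 15 extraembryonic ectoderm markers (left) and of Bmp2 against that of 18 visceral endoderm markers (right), in CPM, 1 point per library. The vehicle libraries of clone 8 sit lowest on both axes on the left, and on the right the Bmp2 levels of clone 4 stay near 10 CPM, from 9.33 to 10.6, while the marker sum runs from 637 to 3019 CPM.

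Bmpr1a, the type I receptor through which the epiblast receives BMP signals, was high in the vehicle libraries of clone 8. There it was at 45.1 and 42.9 CPM, and in the other 6 libraries it ranged from 21.5 to 30.7 CPM. In clone 4 vehicle (24.7 and 23.7 CPM) and 4OHT (25.9 and 21.5 CPM) overlapped, and in clone 8 the 4OHT libraries were at 30.7 and 23.1 CPM. For Bmpr1a the log2 fold change was -0.03 (SE 0.18) in clone 4 and -0.71 (SE 0.18) in clone 8, and the vehicle level was higher in clone 8 by 0.86 (SE 0.19). The call of Bmpr1a in clone 8 was lost when counts were scaled by library totals alone, and it stood in 1 of the 8 fits that leave out 1 library, the one without 4OHT clone 8 replicate 1.

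Of the inhibitory SMAD genes, Smad6, whose product blocks BMP-activated SMADs, was low throughout at 2.68 to 5.41 CPM in vehicle and 4.36 to 7.03 CPM in 4OHT. Its 4OHT libraries lay above vehicle in clone 4, with a log2 fold change of 0.64 (SE 0.29), and overlapped vehicle in clone 8, with 0.28 (SE 0.29). In clone 4, 23.7% of all genes were separated in that way, and Smad6 was not called. Smad7, whose product inhibits both BMP and TGF-beta receptors, was at 26.1 to 29.0 CPM in all 4 libraries of clone 4. In clone 8 it was at 48.2 and 36.9 CPM in vehicle and 45.8 and 23.4 CPM in 4OHT, a log2 fold change of -0.30 (SE 0.28). The spread between the 2 libraries of 4OHT clone 8 was larger than the difference between conditions.

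The 3 Id genes encode helix-loop-helix proteins without a DNA-binding region, which hold E proteins away from DNA. They did not follow one pattern. Id1 was at 121 and 105 CPM in vehicle and 132 and 128 CPM in 4OHT in clone 4, and at 245 and 137 CPM in vehicle and 105 and 145 CPM in 4OHT in clone 8. The conditions overlapped in clone 8, where vehicle replicate 1 alone was high. For Id1 the log2 fold change stood at 0.20 (SE 0.25) in clone 4 and -0.61 (SE 0.25) in clone 8. The clone 8 value was -0.16 without vehicle clone 8 replicate 1 and -1.001 without vehicle clone 8 replicate 2. Either fit left that group without a replicate.

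Id2 was at 386 and 343 CPM in vehicle and 315 and 325 CPM in 4OHT in clone 4, and at 282 and 228 CPM in vehicle and 343 and 323 CPM in 4OHT in clone 8. The conditions were separated in both clones and in opposite directions, with log2 fold changes of -0.19 (SE 0.12) and 0.38 (SE 0.13). Such separation was common, with 23.8% of all genes wholly lower in clone 4 and 31.7% wholly higher in clone 8. Id2 was not called in either clone or for the clone difference. The 4OHT libraries of both clones lay between 315 and 343 CPM, and all 4 vehicle libraries lay outside that range, the nearest just above it. In vehicle Id2 was lower in clone 8 by 0.51 on the log2 scale (SE 0.13), the direction also seen for Bmp4 and Bmp8b.

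Id3 was the one member whose 4 vehicle and 4 4OHT libraries did not overlap. It was at 319 and 345 CPM in vehicle and 277 and 302 CPM in 4OHT in clone 4, and at 420.0 and 371 CPM in vehicle and 282 and 191 CPM in 4OHT in clone 8. Its log2 fold change stood at -0.20 (SE 0.17) in clone 4, -0.74 (SE 0.17) in clone 8 and -0.47 (SE 0.15) over both clones. Of all genes tested, 5.58% were separated in this way with lower 4OHT libraries and 3.42% with higher ones. Over the 8 libraries the levels of Id1 and Id3 had a Pearson correlation of 0.33, Id1 and Id2 of -0.46 and Id2 and Id3 of -0.38, on log2 CPM, as a description of libraries that share clones and conditions.

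**Figure D3:**
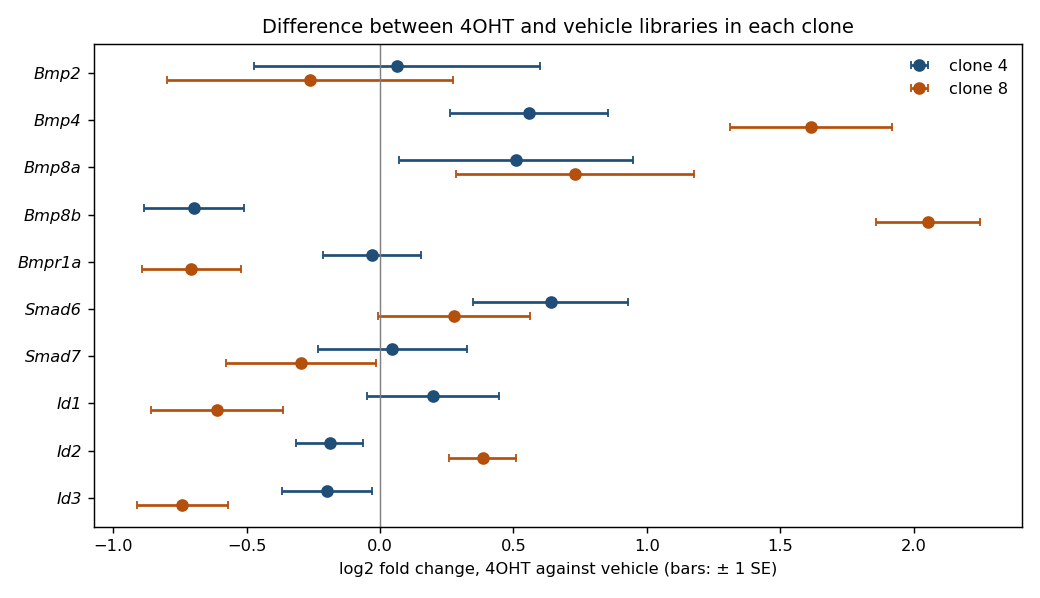
Log2 fold change of each member with 4OHT, in clone 4 and in clone 8. Bars are standard errors derived from the test statistic of the four-group fit of 8 libraries. Bmp8b lies at -0.70 in clone 4 and 2.05 in clone 8, and Bmp4 at 0.56 and 1.62.

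Counted by the edgeR quasi-likelihood test at an adjusted p under 0.05 over all genes, 0 of the 10 members were called in clone 4, where 0.0382% of all genes were, and 4 of 10 in clone 8, where 16.6% of all genes were. The 4 were Bmp4 and Bmp8b, higher with 4OHT, and Bmpr1a and Id3, lower. Bmp8b alone was called for the difference between clones, against 2.83% of all genes in either direction and 1.08% higher. In vehicle, Bmpr1a was called higher in clone 8 and Bmp4, Bmp8b and Id2 lower, against 8.37% of all genes. These vehicle calls were lost without vehicle clone 4 replicate 1 or vehicle clone 8 replicate 1, and 1 or 2 members were called without vehicle clone 4 replicate 2, vehicle clone 8 replicate 2 or either 4OHT library of clone 4. No member was called over both clones, where 0.00546% of all genes were. Nothing is read from these counts, since the list was made from the same contrast. Between groups of 2 libraries, 4 members lay wholly higher and 3 wholly lower with 4OHT in clone 4, against 23.7% and 23.8% of all genes, and 3 and 2 in clone 8, against 31.7% and 28.3%. In vehicle, 5 members lay wholly higher and 3 wholly lower in clone 8, against 29.7% and 29.2%. The members' median log2 fold change was 0.05 in clone 4 and 0.01 in clone 8, and that of all genes was -0.00 and 0.07. Without vehicle clone 8 replicate 1 no gene was called in clone 8, members included, although Bmp4 was still at 1.35 and Bmp8b at 1.81 on the log2 scale. Fitted on the 4 libraries of clone 8 alone, the test called 3 genes and 0 members. The call of Bmp8b for the clone difference was also lost without either 4OHT library of clone 4, and that of Id3 in clone 8 without 4OHT clone 8 replicate 2.

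The rest of the pathway was read from a list of 61 further genes, of which 60 were found in the table and 51 passed the filter. The list was drawn up with earlier results of these data known. Counts of its genes called and their adjusted p-values are therefore a description and not independent support. The 9 not tested were the ligands Bmp3, Bmp5, Bmp10, Bmp15, Gdf2 and Gdf7, the antagonists Grem1 and Sostdc1 and the protease Tll2, none with more than 37 counts in a library. In clone 4 none of the 51 was called, and 1814 of all 18321 genes had an unadjusted p under 0.05. In clone 8, 5 rose and 9 fell with 4OHT, where 8% and 8.6% of all genes did. The balance over all genes turned with the scaling: 1465 were higher and 1576 lower with TMM, and 2102 higher and 1074 lower with library totals, where 5 of the 51 were higher and 7 lower. Members called went from 2 higher and 2 lower to 3 and 1. The median log2 fold change of the 51 genes was -0.21 in clone 8, against 0.07 for all genes. The number called was 0 without vehicle clone 8 replicate 1 and in a fit of clone 8 alone, 7 without vehicle clone 8 replicate 2, and 8 or 9 without any 1 library of clone 4.

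The intracellular SMADs held 3 of the 9 genes that fell in clone 8. Smad4, the partner of all receptor-activated SMADs, was at 78.6 and 58.8 CPM in vehicle clone 8 and 28.1 and 24.8 CPM in 4OHT clone 8, against 22.1 to 24.1 CPM in the 4 libraries of clone 4. It fell by 1.38 on the log2 scale (SE 0.18, edgeR quasi-likelihood adjusted p = 0.00782). Smad1, a direct substrate of BMP receptors, was at 35.1 and 22.3 CPM in vehicle clone 8 and 9.93 and 13.5 CPM in 4OHT clone 8, and fell by 1.29 (SE 0.26, edgeR adjusted p = 0.015). In clone 4 Smad1 lay between 9.79 and 14.0 CPM. Smad9, a further substrate, was at 1.81 and 1.42 CPM in vehicle clone 8 and 0.337 and 0.0167 CPM in 4OHT clone 8 (log2 fold change -3.16, SE 0.85, edgeR adjusted p = 0.0355). Smad5, the third substrate, lay between 25.2 and 33.8 CPM in all 8 libraries and was not called in any comparison.

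Receptor genes moved both ways in clone 8. Acvr1, which encodes another type I receptor, fell by 1.11 on the log2 scale (SE 0.27, edgeR adjusted p = 0.0272). Acvr2b, which encodes a type II receptor, fell by 1.27 (SE 0.26, edgeR adjusted p = 0.016) from 49.9 and 35.4 CPM to 22.0 and 13.4 CPM, where the clone 4 libraries began at 13.0 CPM. Acvr2a, which encodes the related type II receptor, rose by 0.86 (SE 0.25, edgeR adjusted p = 0.0459). Eng, the co-receptor endoglin, rose by 1.64 (SE 0.38, edgeR adjusted p = 0.0229) from 3.40 and 7.35 CPM to 21.7 and 11.8 CPM. Bmpr2, the type II receptor most selective for BMPs, ranged from 8.72 to 16.1 CPM and was not called.

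Genes that tune the signal also moved both ways. Smurf1 and Smurf2 encode ubiquitin ligases that target SMADs and receptors, and both fell in clone 8, by 0.81 (SE 0.24) and 1.41 (SE 0.20) on the log2 scale, with edgeR adjusted p = 0.0457 and 0.00852. Furin, a protease that cuts BMP precursors, fell by 1.15 (SE 0.22, edgeR adjusted p = 0.0129), and Bmp6, a ligand, fell by 2.36 (SE 0.70, edgeR adjusted p = 0.0498) at levels of 2.03 CPM or less. Bmp1, a protease that frees BMPs by cutting chordin despite its name, rose by 1.30 (SE 0.23, edgeR adjusted p = 0.011). Skil, a SMAD co-repressor, rose by 0.36 (SE 0.10, edgeR adjusted p = 0.0392), and Tcf12, an E protein that Id proteins bind, by 0.66 (SE 0.17, edgeR adjusted p = 0.0286). Of the 8 fits that leave out 1 library, Smurf1 and Skil were called in 0, Acvr2a and Bmp6 in 1, Smad9 in 2, Tcf12 in 3, Acvr1 in 5, Eng in 6, and Smad4, Smad1, Acvr2b, Smurf2, Furin and Bmp1 in 7. The calls of Smurf1 and Bmp6 were lost with library totals, and that of Smurf1 without the expression filter. None of the 10 other target genes was called in clone 8, where 16.6% of all genes were. The ligand Bmp7, at 1.36 to 3.65 CPM, and the antagonist Nog, at 0.268 to 1.92 CPM, were not called in any comparison.

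**Figure D4:**
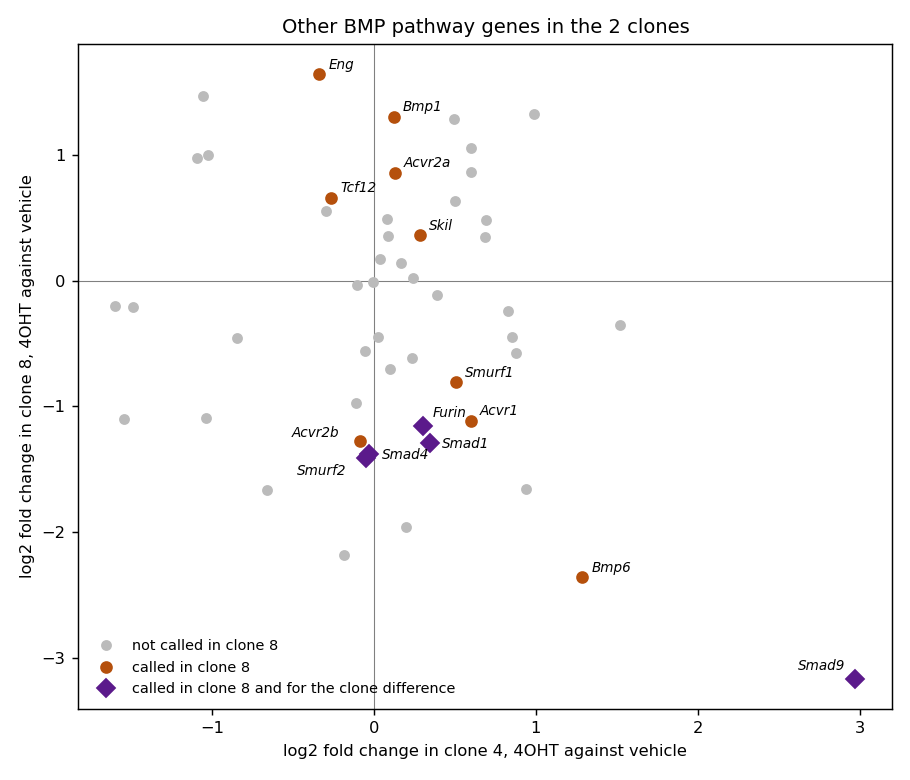
Log2 fold change with 4OHT in clone 8 against clone 4 for the 51 other pathway genes tested; orange circles were called in clone 8, purple diamonds also for the difference between clones. The called genes spread along the clone 8 axis, from -3.16 for Smad9 to 1.64 for Eng.

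The vehicle libraries of the clones already differed in these genes, and they are shared with the comparisons above. In vehicle, 8 of the 51 were higher in clone 8 and 2 lower, where 4.06% and 4.31% of all genes were. Smad4 was higher by 1.57 on the log2 scale (edgeR adjusted p = 0.00896), Acvr2b by 1.55 (edgeR adjusted p = 0.0207), Smad1 by 1.46 (edgeR adjusted p = 0.0224), and Acvr1 by 1.27 (edgeR adjusted p = 0.0317). Smurf1, Smurf2, the co-repressor gene Ski and Furin were higher by 1.20, 1.01, 1.03 and 0.95, with edgeR adjusted p between 0.0263 and 0.0344. Eng was lower by 1.70 (edgeR adjusted p = 0.0337), and Fstl3, a secreted binder of activins and BMPs, by 1.67 (edgeR adjusted p = 0.0411). The number called was 0 without either vehicle library of clone 4 or without vehicle clone 8 replicate 1.

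**Figure D5:**
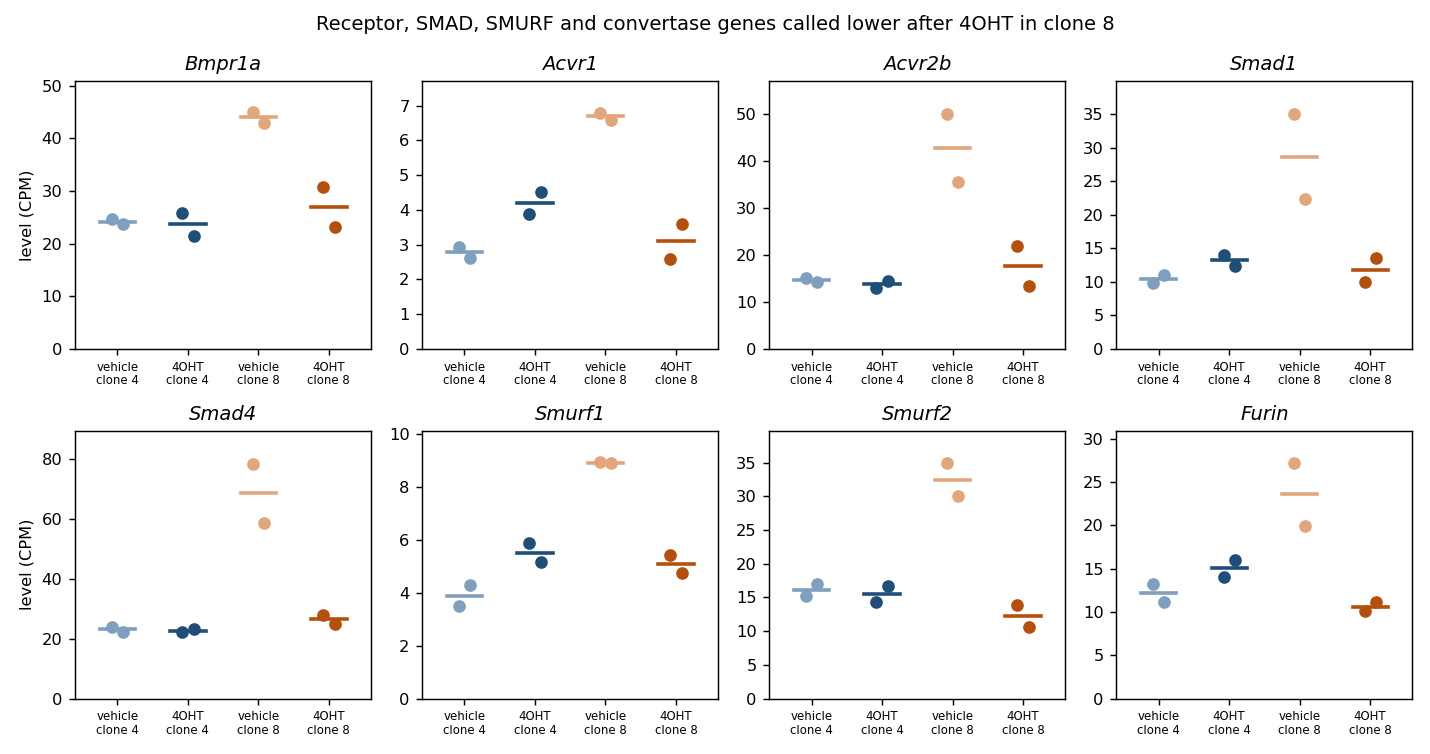
Levels (CPM) of signal-transducing genes in the 8 libraries by clone and condition; points are libraries and bars are group means of 2. The 8 genes were chosen after their values were seen. Genes called higher in clone 8, such as Eng and Bmp1, and genes not called there are not drawn. Id3, Bmp6 and Smad9 were also called lower and are not drawn, the last 2 being lower in level. Smad4 stands at 78.6 and 58.8 CPM in vehicle clone 8 and between 22.1 and 28.1 CPM in the other 6 libraries.

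The response to 4OHT differed between clones for 5 of the 51 genes by the interaction term, all lower in clone 8, where 1.75% of all genes were. With library totals 2 of the 5 calls were left, and over all genes 214 differences were higher and 197 lower, against 198 and 321 with TMM. These were Smad4 (-1.35, edgeR adjusted p = 0.0357), Smad1 (-1.63, edgeR adjusted p = 0.0496), Smad9 (-6.14, edgeR adjusted p = 0.0386), Smurf2 (-1.36, edgeR adjusted p = 0.0462) and Furin (-1.46, edgeR adjusted p = 0.0451). Smad9 rests on few counts, and in clone 4 it went from 0.562 and 0.298 CPM in vehicle to 2.74 and 4.07 CPM in 4OHT. In clone 4 the log2 fold change was 2.97 for Smad9, but -0.03 for Smad4, -0.05 for Smurf2, 0.30 for Furin and 0.34 for Smad1. All 18 visceral endoderm markers also had a negative clone difference, 8 of them called. Their median log2 fold change was 1.71 in clone 4 and -0.96 in clone 8. Bmp6, with log2 fold changes of 1.29 in clone 4 and -2.36 in clone 8, shared that direction. The 4OHT libraries of clone 8 also held the highest mitochondrial shares, 1.35% and 1.19%. The part of either in these pathway genes was not tested. The 5 calls were lost without any 1 of 5 libraries, namely those of clone 4 and vehicle clone 8 replicate 1. Called genes differed in length too. In clone 8, all genes called higher had a median exonic length of 5871 bases and those called lower 2513, against 3688 for all genes, while the 51 pathway genes tested had a median of 4914, the 5 that rose 8870 and the 9 that fell 5368.

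Over both clones with clone as a term, none of the 51 was called, and 3088 of all genes had an unadjusted p under 0.05. DESeq2 called 3 of the 51 and 1 member in that comparison.

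The genes whose levels ran most like Bmp4 over the 8 libraries, among 9152 with above-median expression, were Cdx2 (Pearson r 0.99, Spearman rho 0.98), Vps39 (0.98, 0.98) and Cant1 (0.98, 0.98), on log2 CPM. Cdx2, a transcription factor of the extraembryonic ectoderm, was at 20.6 and 26.7 CPM in vehicle clone 8 and 47.4 to 94.8 CPM elsewhere. For Bmp2 they were Ccdc25 (0.97, 0.74), Apoc1 (0.91, 0.95) and Smarca1 (0.90, 0.71). For the mean z-score of the Id genes the first 2 were Rps3a1 (0.93, 0.83) and Wfdc2 (0.93, 0.88). These are the highest of many values over 8 libraries that share clone and condition, so they describe these libraries only.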

How the data were processed

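RNA was measured in 8 libraries of E5.5 epiblasts, 2 for each of 2 clones in vehicle and 4OHT, grouped by the sample titles. The deposited values are raw counts per Ensembl gene. Sequencing files were handled with bcl2fastq 2.19.1 and STAR 2.5.3a on mm10, per the submitters' processing notes; the role of each tool, the counting program, the gene annotation and strand handling are not given in the sources used here. Symbols were found for 52403 of 52636 gene IDs. Genes were tested in R 4.3.3 with edgeR 4.0.16 (filterByExpr with a minimum count of 10, TMM scaling, quasi-likelihood test) on all 8 libraries, as 4 groups or as clone plus condition, with Benjamini-Hochberg adjustment over 18321 genes and calls at an adjusted p under 0.05. Standard errors were derived from the same test, as the absolute log2 fold change over the square root of its F statistic. Between-replicate variation (edgeR's BCV) came to 0.266. CPM and RPKM used TMM-scaled totals and GENCODE exon lengths on GRCm38. Depth was 33341813 to 72497719 counts per library. Replicates were not repeats of one library (chi-square over its degrees of freedom 23.1 to 67.4). Alternatives were other scalings and filters, DESeq2 1.42.0, a replicate block, single clones, each library left out, summed Bmp8 counts and, chosen after seeing the data, thinning to the smallest library.

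The text names all 10 members, the other pathway genes called in any of 5 comparisons, Bmpr2, Smad1, Smad5, Smad4, Bmp7 and Nog, and the 3 genes most like Bmp4, Bmp2 and the Id genes, of which 1 is not reported here. Members and lists were chosen with earlier results of these data known. Of the marker lists, epiblast markers summed to 5202 to 6548 CPM, with 4 of 10 called lower with 4OHT in clone 8, and maternal markers to 13.0 to 30.4 CPM. Visceral endoderm markers had 5 of 18 called lower in clone 8, and 8.6% of all genes were called lower there.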

Additional observations from a re-analysis of the deposited data

Results flagged for a closer look

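Bmp2 in vehicle clone 8 replicate 2, at 13.2 CPM, stood apart from the other 3 vehicle libraries, which lay between 9.50 and 9.58 CPM. Its gap to the nearest was 0.976 of the group's range, above Dixon's limit of 0.829 for 4 samples. Of 20 member groups of 4 libraries examined, 1 was picked out, and chance alone picks out about 1.

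The response to 4OHT differed between clones by the interaction term for 6 genes (edgeR quasi-likelihood, adjusted p under 0.05). The log2 difference, clone 8 minus clone 4, was 2.75 for Bmp8b, -6.14 for Smad9, -1.46 for Furin, -1.63 for Smad1, -1.36 for Smurf2 and -1.35 for Smad4. Bmp8b belongs to the list chosen on these data, and the others to a list drawn up with earlier results known. Each difference includes the vehicle libraries of clone 8, and without replicate 1 of that group no gene was called, with Bmp8b then at 2.50.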

How the results depend on the processing

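No member or other pathway gene called in a comparison changed sign there under any alternative, while uncalled values near 0, such as those of Bmp2, Bmp8a and Smad7, did in some. Among member values under alternatives, 731 moved by less than the replicate spread and 44 by more. Among values of other pathway genes, 357 stayed on their side of the threshold and 152 lost the call. Leaving out 1 library leaves a group with 1 sample, which is then assumed to vary like the other groups. Over the 8 such fits, the genes, members and other pathway genes called ranged from 0 to 267, 0 to 0 and 0 to 1 in clone 4, from 0 to 3179, 0 to 5 and 0 to 15 in clone 8, from 0 to 1205, 0 to 3 and 0 to 11 for the clone difference, from 0 to 2518, 0 to 5 and 0 to 13 between clones in vehicle, and from 0 to 1, 0 to 0 and 0 to 0 over both clones. The cause of these changes was not tested.

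Without the expression filter, calls in clone 4 were 728 genes, 2 members and 4 other pathway genes; for the clone difference 2114, 4 and 17; over both clones 1337, 3 and 4; and 2901 genes in vehicle. DESeq2 called 468 genes, 1 member and 3 other pathway genes in clone 4, 1864 genes and 16 other pathway genes for the clone difference, 3064 genes in vehicle, and 1053, 1 and 3 over both clones, where 6394 genes had no adjusted p. With at least 10 counts in every library, 78 genes were called in clone 4 and 0 over both clones. Library totals, which shift the median gene by 0.122 in clone 8 and 0.105 for the clone difference, left 2 other pathway genes for that difference. Clone 4 alone gave 197 genes and 1 other pathway gene, and clone 8 alone 3 genes, 0 members and 0 other pathway genes. Thinned libraries gave 19 genes in clone 4, 0 over both clones and 3 other pathway genes for the clone difference.

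The deviations of same-numbered samples correlated between -0.0298 and 0.0947. These values show no strong shift shared by replicate number, but they cannot decide whether the samples were paired. A replicate block gave 0 genes in clone 4 and 2 other pathway genes for the clone difference, and it lost the calls of Bmp4 between clones in vehicle and of Smurf1 in clone 8. Depth limits the genes near or under 1 CPM, Smad9, Bmp6 and Nog.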
